A study of Mus musculus with 8 samples.

Results

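Kinesins are motor proteins that use ATP to move along microtubules or to take microtubule ends apart. The genes described here are the kinesin motors and kinesin light chains of the mouse, taken as every gene symbol that begins with Kif followed by a digit or c, or with Klc followed by a digit. The symbol rule found 45 of 23523 genes in the table, of which 41 were Kif genes and 4 were Klc genes. They were sorted by textbook role into 13 mitotic kinesins, 21 transport genes (17 motors and 4 light chains), 6 ciliary kinesins and 5 others. A further 5 symbols that match the rule, among them Kif14 and Kif28, were not analysed here.

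RNA sequencing compared 3 normal mouse brains with 5 mouse glioblastomas. The tumours had been started by a lentiviral vector that carried HrasG12V, an activated Ras oncogene, together with a short hairpin RNA against p53, and they were taken once the mice had reached a clinical endpoint. Tumour tissue carried GFP and was dissected free of surrounding normal brain, so a tumour library can still hold host cells such as blood vessels and macrophages. The sources used here do not give strain, age, brain region, the cell type in which the vector was active or any treatment of the normal brains. Whether each sample is a different animal is not stated in the labels, so p-values measure the spread between these samples only. Library totals ranged from 5490351 to 15564280 fragments, with tumour 4 the deepest, and libraries are numbered in deposition order.

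In a dividing cell, kinesins push the spindle poles apart, move and attach chromosomes, trim microtubule ends and build the midbody at which daughter cells separate. In neurons, which do not divide, other kinesins carry vesicles, mitochondria, cytoskeletal proteins and receptors along axons and dendrites, and the light chains link the conventional kinesin-1 motors to cargo. A further set works in cilia, as motors or as regulators of their length and of hedgehog signalling.

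The kinesin classes differed in direction. All 12 mitotic members that could be tested were higher in glioblastoma, whereas 12 of 21 transport genes were lower, 1 was higher and 8 did not pass the test. Of the 6 ciliary genes 3 were lower and 1 was higher, and of the 3 tested genes among the others 1 was higher. Kif2a, which acts at spindle poles as well as in axons, was placed among these others. It was not called (log2 fold change -0.05), so the mitotic count holds for the class drawn without Kif2a. A gene was called higher or lower at a Benjamini-Hochberg adjusted p below 0.05 in edgeR's quasi-likelihood test over 14641 genes. The background was wide: 37.1% of all tested genes were called higher and 33.9% lower. All tumours lay above all brains in 12 of the 12 tested mitotic genes and in 36.1% of all tested genes. All tumours lay below all brains in 12 of the 21 transport genes and in 34.5% of all tested genes. The median log2 fold change was 5.07 over the tested mitotic members and -1.34 over the transport genes, beside 0.06 over all tested genes. For the mitotic class this is a description, because 8 of the 12 tested members lay below the filter level in at least 1 brain. In 5 of them (Kif15, Kif18b, Kif2c, Kifc1 and Kifc5b) this held in every brain, so those 5 entered the test through the tumours alone. The rest of the 8 (Kif20a, Kif22 and Kif23) reached the filter level in 1 or 2 brains. As the filter asked for 3 libraries, they also needed the tumours to enter the test. The filter level was 1.324 CPM, taken from fragment counts scaled by library depth alone. All CPM values printed for genes are scaled by library depth and TMM factors.

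**Figure D1:**
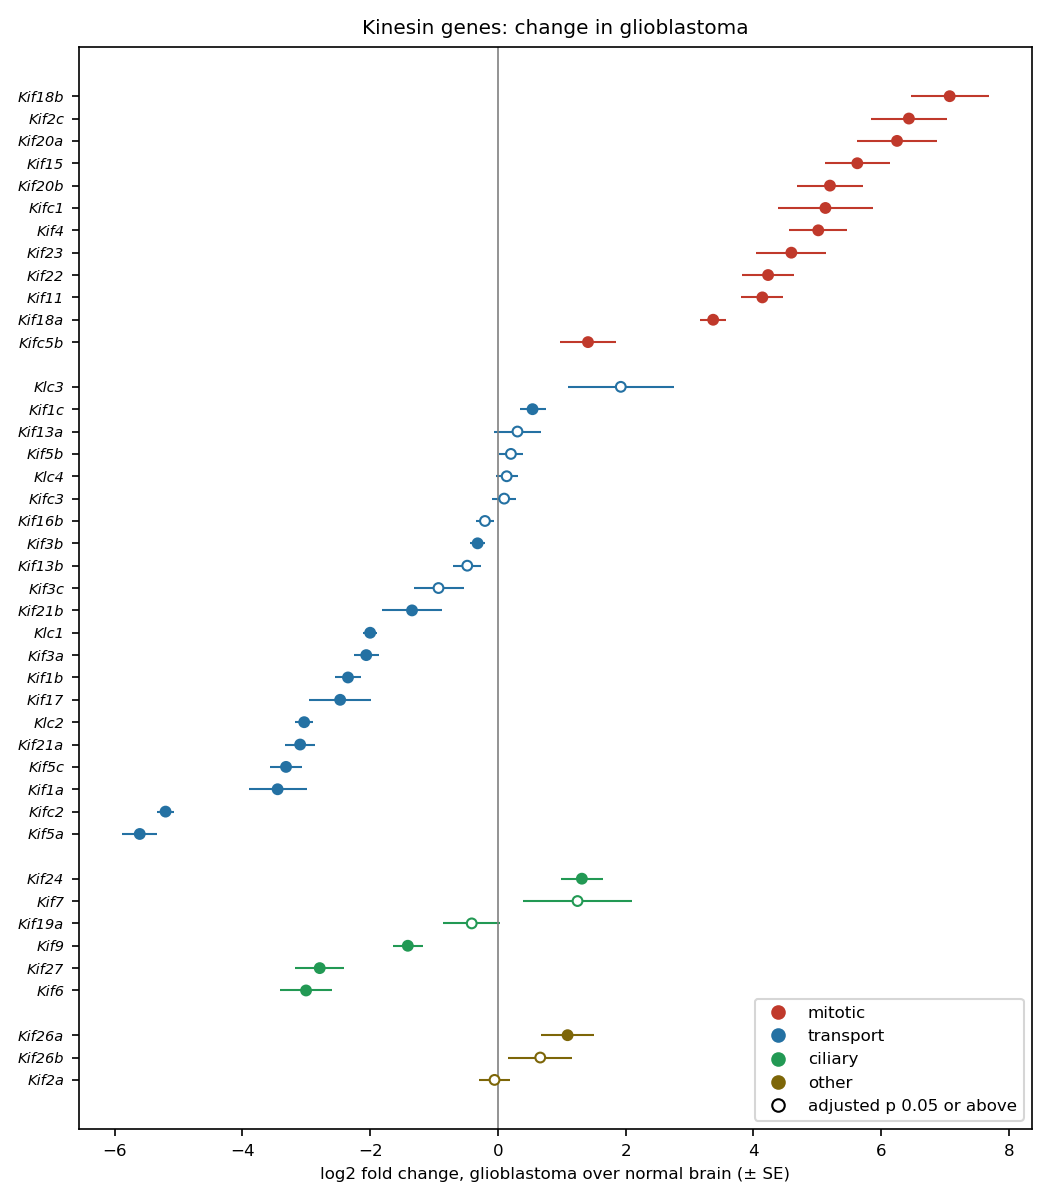
Log2 fold change of each tested kinesin gene (x axis, glioblastoma over normal brain, with bars of 1 standard error), grouped by class on the y axis, with 3 brains and 5 tumours. Filled points were called at an adjusted p below 0.05 and open points were not. The mitotic genes lie between 1.41 and 7.07, and the transport genes spread from -5.61 to 1.92.

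Levels of different genes were set side by side as FPKM, the fragment count scaled by transcript length and library depth. Summed over the mitotic class, FPKM was 5.22, 5.02 and 4.02 in the brains and 116.6, 152.5, 175.2, 63.9 and 140.1 in tumours 1 to 5. The lowest tumour therefore stood above the highest brain by a wide margin. Summed over the transport class, FPKM was 2134, 1900 and 1923 in the brains and 431.0, 409.3, 388.2, 470.0 and 400.4 in the tumours, with no overlap. The mitotic motors made up 0.290% ± 0.0306 (SD, n = 3) of the FPKM of all kinesin motors in the brains and 26.4% ± 7.86 (SD, n = 5) in the tumours. The share ran from 14.2% in tumour 4 to 34.6% in tumour 3. Transport motors still supplied 66.6% ± 8.83 (SD, n = 5) of kinesin motor FPKM in the tumours, after 97.4% ± 0.338 (SD, n = 3) in the brains.

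**Figure D2:**
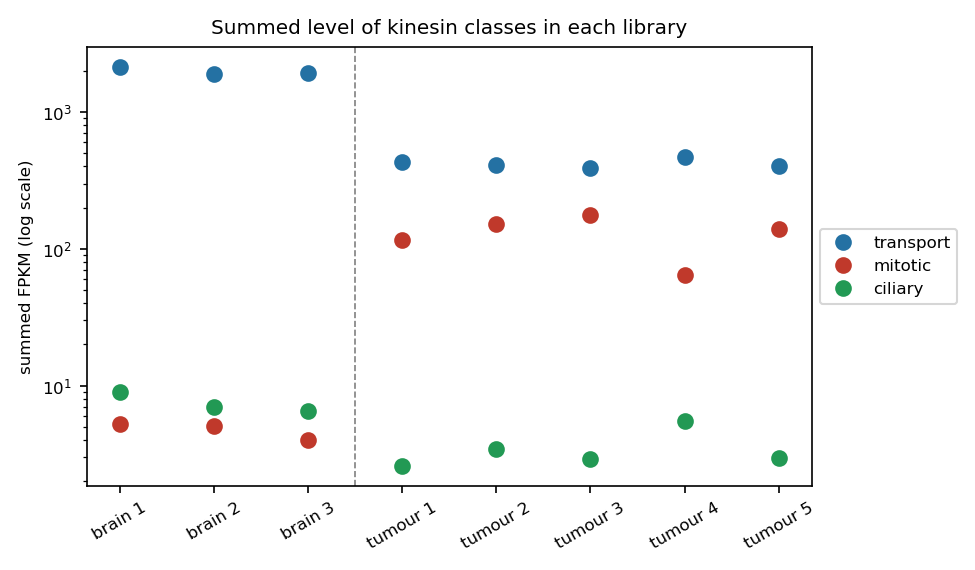
Summed FPKM (y axis, log scale) of the transport, mitotic and ciliary kinesin classes in each of the 3 brain and 5 tumour libraries (x axis), 1 point per library. Transport genes fall from between 1900 and 2134 in the brains to between 388.2 and 470.0 in the tumours, and mitotic genes go from at most 5.22 to at least 63.9.

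Among the motors that shape the bipolar spindle, Kif11 (Eg5), which slides antiparallel microtubules apart, measured 4.57, 4.62 and 2.05 CPM in the brains and 67.8, 71.4, 72.2, 44.6 and 73.2 CPM in the tumours. Every tumour was above every brain, and tumour 4 was the lowest tumour. The log2 fold change was 4.14 ± 0.33 (SE; edgeR adjusted p = 9.64e-06). Kif15, a second spindle motor that can stand in for Kif11, measured 1.18, 0.721 and 0.545 CPM in the brains and 35.2, 36.4, 68.6, 21.0 and 40.3 CPM in the tumours. The groups did not overlap, and tumour 3 was the highest. Its log2 fold change was 5.63 ± 0.51 (SE; edgeR adjusted p = 2.02e-05). The minus-end directed motor Kifc1 (HSET), which focuses spindle poles, rested on 3 brain fragments in all, and its level in the tumours was 36.2 times that in the brains (95% counting interval 12.4 to 175). Its near-identical copy Kifc5b changed less, with a log2 fold change of 1.41 ± 0.44 (SE; adjusted p = 0.0172 in edgeR). Fragments of this pair may have been divided between the copies, so both values are uncertain. The call of Kifc5b was lost without brain 2 (adjusted p = 0.0646) or brain 3 (adjusted p = 0.0783). Kif15, Kifc1 and Kifc5b were below the filter level in every brain and entered the test through the tumours alone, so their changes are descriptions.

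Motors that act at chromosomes and at microtubule ends were also higher in the tumours. Kif2c (MCAK), which takes microtubule ends apart at centromeres, measured 0, 0.289 and 0.682 CPM in the brains and 31.0, 37.5, 34.3, 17.5 and 33.8 CPM in the tumours. Its groups were far apart, and its log2 fold change was 6.43 ± 0.59 (SE; edgeR adjusted p = 2.17e-05). Kif2c was below the filter level in every brain and entered the test through the tumours alone, so this is a description. Kif18b, which limits the length of astral microtubules, had 2 fragments in all 3 brains together and measured 12.1, 18.2, 20.04, 8.09 and 17.6 CPM in the tumours. The ratio of tumour to brain was 142 (95% counting interval 39.2 to 1170). Kif18a, which dampens chromosome movements at the metaphase plate, was already measurable in the brains at 3.38, 2.74 and 2.73 CPM and reached 29.2, 32.8, 35.4, 24.9 and 30.5 CPM in the tumours. This gave the smallest standard error of the class, with a log2 fold change of 3.37 ± 0.20 (SE; adjusted p = 2.29e-06 in edgeR). Kif22 (Kid), a chromosome arm motor, had the highest mean mitotic FPKM in the brains (0.888 ± 0.447, SD, n = 3). It rose from 2.71, 1.59 and 0.954 CPM in the brains to 29.8, 33.9, 42.7, 19.9 and 36.4 CPM in the tumours, a log2 fold change of 4.23 ± 0.40 (SE; adjusted p = 2.58e-05 in edgeR). Kif22 reached the filter level in 2 brains and needed the tumours to enter the test, so its change is a description. Kif4, a chromokinesin that acts on chromosome arms and on the central spindle, went from between 2.16 and 2.32 CPM to between 30.5 and 109.1 CPM, and its pseudogene Kif4-ps, at 0 fragments in every brain, was not tested. Fragments of Kif4 and Kif4-ps may be divided between the copies. Kif2b, a testis-rich relative of Kif2c, had 0 fragments in all 8 libraries, which in a single library allows up to 3 fragments, or 0.193 to 0.546 CPM depending on depth.

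The motors of the central spindle and midbody made up the third group. Kif20a (Mklp2), which brings the chromosomal passenger complex to the central spindle, measured 0.508, 1.73 and 1.23 CPM in the brains and 76.0, 120.2, 128.6, 31.6 and 96.3 CPM in the tumours. All tumours lay above the brains, from 31.6 CPM in tumour 4 to 128.6 CPM in tumour 3. The log2 fold change was 6.25 ± 0.63 (SE; edgeR adjusted p = 3.58e-05), and at 26.03 ± 11.4 FPKM (SD, n = 5) Kif20a was the mitotic kinesin with the highest mean level per length in the tumours. Kif20b (Mphosph1), needed for the last steps of cell separation, measured 1.86, 2.02 and 1.91 CPM in the brains and 65.6, 96.5, 94.9, 24.3 and 76.1 CPM in the tumours. Its brains were close together, and tumour 4 was again the lowest tumour. The log2 fold change was 5.20 ± 0.52 (SE; edgeR adjusted p = 3.65e-05). Kif23 (Mklp1), a subunit of centralspindlin, had a log2 fold change of 4.59 ± 0.55 (SE; adjusted p = 9.50e-05 in edgeR). Kif20a reached the filter level in 1 brain and Kif23 in 2. Both needed the tumours to enter the test, so their changes are descriptions.

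Tumours differed from each other along the same line in most mitotic kinesins. Tumour 4 was the lowest tumour for 11 of the 12 tested mitotic genes, and tumour 3 was the highest for 9. Proliferation markers, a list of 10 genes such as Mki67 and Top2a, showed the same ends: tumour 4 was lowest for 10 of 10 and tumour 3 highest for 7. Their summed level was between 54.1 and 61.9 CPM in the brains and 1332, 1674, 1844, 751.0 and 1342 CPM in tumours 1 to 5. All 10 were called higher in glioblastoma, beside 37.1% of all tested genes. Of the 10, Ccnb1 and Cdk1 were below the filter level in every brain and entered the test through the tumours alone. Ccna2 reached that level in 1 brain and also needed the tumours to enter the test. The part of proliferation in the kinesin values was not tested. With 5 tumours no correlation is given.

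**Figure D3:**
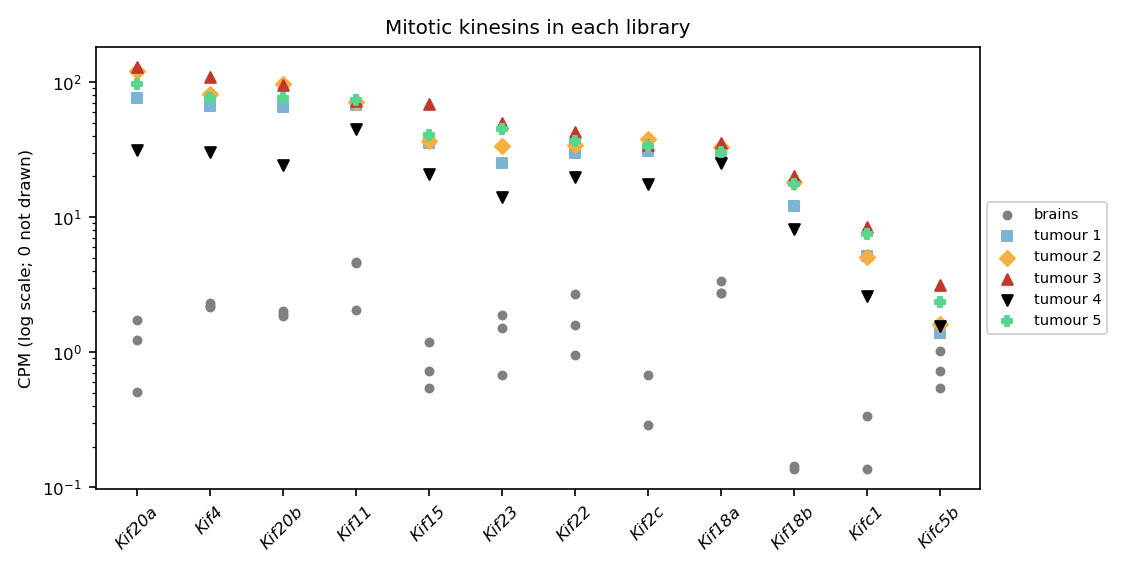
CPM (y axis, log scale, values of 0 not drawn) of the 12 tested mitotic kinesins (x axis, ordered by mean tumour level) in each library. Grey points are the 3 brains and coloured symbols the 5 tumours; tumour 4 is the lowest tumour for 11 genes.

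Upstream sequences of mitotic and transport genes are shown because cell cycle genes often carry a CHR element (TTTGAA, or TTCAAA on the other strand) close to the start of transcription and a CCAAT box (ATTGG on the other strand) farther upstream. Each window is the 100 bases just before the annotated start, written 5′ to 3′ along the gene, from the RefSeq promoter table of build GRCm38.p6, which is not the mm9 build of the deposited values. Capitals mark TTTGAA and CCAAT on either strand. The first 5 genes are mitotic and the last 2 are transport genes. They are examples and show a cleaner contrast than all windows do. CCAAT also lies in the windows of the transport genes Kif3a and Kif3b, and neither motif lies in those of the mitotic genes Kif18a and Kif20b.
Kif11 (chr19:37376282-37376381, plus strand): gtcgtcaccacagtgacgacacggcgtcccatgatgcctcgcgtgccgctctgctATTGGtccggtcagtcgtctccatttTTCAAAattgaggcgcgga
Kif15 (chr9:122950981-122951080, plus strand): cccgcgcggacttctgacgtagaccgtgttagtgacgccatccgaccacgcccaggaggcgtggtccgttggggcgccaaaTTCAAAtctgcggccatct
Kif22 (chr7:127042421-127042520, minus strand): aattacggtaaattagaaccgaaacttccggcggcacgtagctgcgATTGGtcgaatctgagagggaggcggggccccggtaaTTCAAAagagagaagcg
Kif18b (chr11:102925125-102925224, minus strand): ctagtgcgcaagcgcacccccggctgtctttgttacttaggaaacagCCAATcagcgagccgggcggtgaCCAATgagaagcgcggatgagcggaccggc
Kif23 (chr9:61946800-61946899, minus strand): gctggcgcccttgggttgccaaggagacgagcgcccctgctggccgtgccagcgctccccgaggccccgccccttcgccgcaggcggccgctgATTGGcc
Kif5c (chr2:49619186-49619285, plus strand): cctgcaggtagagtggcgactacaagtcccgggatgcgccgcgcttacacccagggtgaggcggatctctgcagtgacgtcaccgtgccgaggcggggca
Klc1 (chr12:111758768-111758867, plus strand): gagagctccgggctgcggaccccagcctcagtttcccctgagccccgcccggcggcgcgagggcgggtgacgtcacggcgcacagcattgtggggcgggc

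The table gave windows from 250 bases before to 50 bases after the start for 12 of the 13 mitotic genes and for 14 of the 21 transport genes. In these windows TTTGAA on either strand was found in 10 of 12 mitotic promoters (83.3%), in 1 of 16 transport promoters (6.25%, an alternative start of Kif1a) and in 17.9% of 32851 promoters in the table. Kif18a and Kif2b were the mitotic promoters without it. It lay within 30 bases of the start in 9 of the 12 mitotic promoters (75%), in 0 transport promoters and in 3.14% of all promoters, with the distance of 30 bases chosen after the positions were seen. In Kif11 and Kif15 it began 19 bases before the start, and in Kif22 17 bases before it. In Kif18b and Kif23 it lies just after the start and so outside the printed windows. CCAAT was found in 8 mitotic promoters (66.7%), 6 transport promoters (37.5%) and 37.4% of all promoters. Both motifs occurred together in 7 mitotic promoters (58.3%) and 6.95% of all promoters. The near-identical copies Kifc1 and Kifc5b each carry both motifs and are counted separately in these mitotic counts, although their promoters are not independent. The string GGCGGGAA, 1 form of the E2F motif, was in 0 mitotic promoters and in 2.19% of all promoters. Other forms of the E2F motif were not searched, so their presence is not known from this count. A match is a string of letters in a window and was not measured as a binding site.

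The genes that work with mitotic kinesins were read from a list of 20 spindle and midbody partners. Of the 20 tested, 18 were higher, 1 was lower and 1 was not called, beside 37.1% higher and 33.9% lower among all tested genes. The 20 partner genes had a median log2 fold change of 5.04, and 7 of them were below the filter level in every brain. Aurka, Prc1, Ect2, Ckap2 and Hmmr reached that level in 1 or 2 brains and also needed the tumours to enter the test. The largest fitted changes were in genes that entered the test through the tumours alone and whose size rests on few brain fragments. Cep55, a midbody protein of abscission, had 5 brain fragments, all in brain 3, and between 13.5 and 51.4 CPM in the tumours (edgeR adjusted p = 0.000102). Ndc80, the microtubule-binding part of the kinetochore, had 4 brain fragments and between 10.6 and 41.3 CPM in the tumours (edgeR adjusted p = 2.45e-05). Aurkb, the kinase of the chromosomal passenger complex, had 3 brain fragments and its tumour level was 94.8 times its brain level (95% counting interval 32.4 to 459). Cit, the citron kinase gene, went the other way, from 65.6, 65.5 and 80.7 CPM in the brains to between 8.39 and 26.2 CPM in the tumours (log2 fold change -1.99 ± 0.31, SE; edgeR adjusted p = 0.00048). Numa1, which tethers spindle poles, had a log2 fold change of 0.00 ± 0.13 (SE). Cenpe, itself a kinesin motor whose symbol falls outside the rule, had a log2 fold change of 4.94 ± 0.50 (SE; adjusted p = 3.56e-05 in edgeR).

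The transport kinesins that were lower in glioblastoma fell to different extents. The conventional kinesin-1 heavy chains Kif5a, Kif5b and Kif5c move vesicles, mitochondria and cytoskeletal cargo. Kif5a, the form enriched in neurons, measured 3829, 2969 and 2777 CPM in the brains and 87.2, 59.7, 41.1, 58.6 and 81.3 CPM in the tumours. The groups lay far apart, and the log2 fold change of -5.61 ± 0.27 (SE; adjusted p = 8.87e-07 in edgeR) was the largest fall of any kinesin gene tested here. Kif5c, also enriched in neurons, measured 2349, 1945 and 1886 CPM in the brains and 257.2, 150.3, 144.8, 276.1 and 205.8 CPM in the tumours. It fell in every tumour, by a log2 fold change of -3.32 ± 0.25 (SE; adjusted p = 6.62e-06 in edgeR). Kif5b, which most cell types express, measured 642.6, 528.6 and 507.4 CPM in the brains and 647.0, 720.0, 762.4, 454.9 and 638.9 CPM in the tumours. Its groups overlapped, with a log2 fold change of 0.20 ± 0.19 (SE; adjusted p = 0.350 in edgeR), and it passed the test at 0.42 (adjusted p = 0.0267) with brain 1 and tumour 4 both left out.

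Within the Kif5 subfamily the order of levels reversed. Mean FPKM in the brains was 494.9 for Kif5a, 293.9 for Kif5c and 90.9 for Kif5b. In the tumours it was 10.2 for Kif5a, 29.2 for Kif5c and 104.2 for Kif5b, which made Kif5b the transport gene with the highest level per length there. Kif5a supplied 57.5%, 55.9% and 55.1% of the subfamily's FPKM in the brains and 8.81%, 6.27%, 4.22%, 7.57% and 8.70% in the tumours. Kif5b supplied 10.4% ± 0.225 (SD, n = 3) in the brains and 72.1% ± 8.82 (SD, n = 5) in the tumours. The shares did not overlap between groups for either gene.

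The kinesin-3 motors Kif1a and Kif1b carry synaptic vesicle precursors, and Kif1b also carries mitochondria. Kif1a measured 1584, 1632 and 1750 CPM in the brains and 165.3, 99.6, 60.2, 307.5 and 125.0 CPM in the tumours. Every tumour was lower than every brain, tumour 4 was the highest tumour, and the log2 fold change was -3.45 ± 0.45 (SE; edgeR adjusted p = 0.000166). Kif1b had a log2 fold change of -2.35 ± 0.20 (SE; adjusted p = 1.28e-05 in edgeR). Kif1c, a widely expressed relative, went against its class at 73.1, 55.4 and 55.2 CPM in the brains and 80.7, 110.8, 88.0, 63.6 and 103.0 CPM in the tumours. Tumour 4 lay below brain 1, so the groups overlapped, and the log2 fold change of 0.54 ± 0.20 (SE; adjusted p = 0.0390 in edgeR) lost its call when brain 2 or 3 or tumour 2, 3 or 5 was left out (adjusted p up to 0.132). As a share of the subfamily's FPKM, Kif1c went from 2.49% ± 0.489 (SD, n = 3) to 21.5% ± 7.57 (SD, n = 5). The other kinesin-3 motors of endosome and vesicle transport, Kif13a, Kif13b and Kif16b, were not called, with log2 fold changes of 0.31, -0.48 and -0.20.

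Kinesin-2 motors work as Kif3a paired with Kif3b or Kif3c, with Kifap3 as the adaptor, and serve both cilia and axons. Kif3a fell, with a log2 fold change of -2.06 ± 0.20 (SE; adjusted p = 2.74e-05 in edgeR), and Kifap3 fell by 2.22 ± 0.22 on the log2 scale (SE; edgeR adjusted p = 2.78e-05). Kif3b had a small fall of -0.32 ± 0.12 (SE; edgeR adjusted p = 0.0355), which lost its call with upper quartile scaling (adjusted p = 0.121), with library size scaling (adjusted p = 0.134) and without any 1 brain or tumour 1, 2 or 3 (adjusted p up to 0.116). Kif3c measured 366.1, 362.4 and 377.8 CPM in the brains and 188.0, 119.6, 118.6, 398.1 and 143.0 CPM in the tumours. Tumour 4 alone stood above the brains, and the log2 fold change of -0.93 ± 0.39 (SE; adjusted p = 0.0589 in edgeR) became -1.36 without that library (adjusted p = 9.2e-05). Kif17, a homodimeric kinesin-2 of dendrites, fell by 2.47 ± 0.48 on the log2 scale (SE; edgeR adjusted p = 0.00167).

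Kifc2, a minus-end directed motor found mainly in neurons, had the smallest adjusted p of the kinesin genes. It measured 292.3, 302.8 and 293.2 CPM in the brains and 7.45, 8.84, 7.31, 9.20 and 7.35 CPM in the tumours. The groups were far apart and each was tight, with a log2 fold change of -5.20 ± 0.13 (SE; adjusted p = 1.64e-07 in edgeR). Its relative Kifc3 was not called (0.10 ± 0.19, SE; edgeR adjusted p = 0.656), so that Kifc2 went from 86.2% ± 0.941 (SD, n = 3) to 13.8% ± 1.75 (SD, n = 5) of the FPKM of the pair. Kif21a, a kinesin-4 that slows microtubule growth in axons, measured 531.8, 499.9 and 507.4 CPM in the brains and 58.9, 59.0, 69.2, 35.2 and 78.1 CPM in the tumours. It fell in all 5 tumours, by a log2 fold change of -3.09 ± 0.23 (SE; adjusted p = 6.82e-06 in edgeR). Kif21b had a log2 fold change of -1.34 ± 0.47 (SE; adjusted p = 0.0284 in edgeR), and leaving out brain 1, 2 or 3 or tumour 3 or 5 ended that call (adjusted p up to 0.0870), as did library size scaling (-1.17; adjusted p = 0.0643).

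The light chains Klc1 to Klc4 also divided. Klc1 measured 730.4, 684.2 and 769.3 CPM in the brains and 172.9, 184.7, 180.5, 191.4 and 180.9 CPM in the tumours. The tumours were nearly level with each other, and the log2 fold change was -1.999 ± 0.109 (SE; edgeR adjusted p = 1.42e-06). Klc2 fell by 3.03 ± 0.14 on the log2 scale (SE; edgeR adjusted p = 7.37e-07). Klc4 was not called (0.14 ± 0.17, SE; edgeR adjusted p = 0.492) and its share of light chain FPKM went from 2.38% ± 0.130 (SD, n = 3) to 10.4% ± 1.02 (SD, n = 5). Klc3 measured 16.3 CPM in tumour 4 and between 1.98 and 4.19 CPM in the other tumours, beside 1.09 to 2.16 CPM in the brains, and was not called (edgeR adjusted p = 0.0633).

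**Figure D4:**
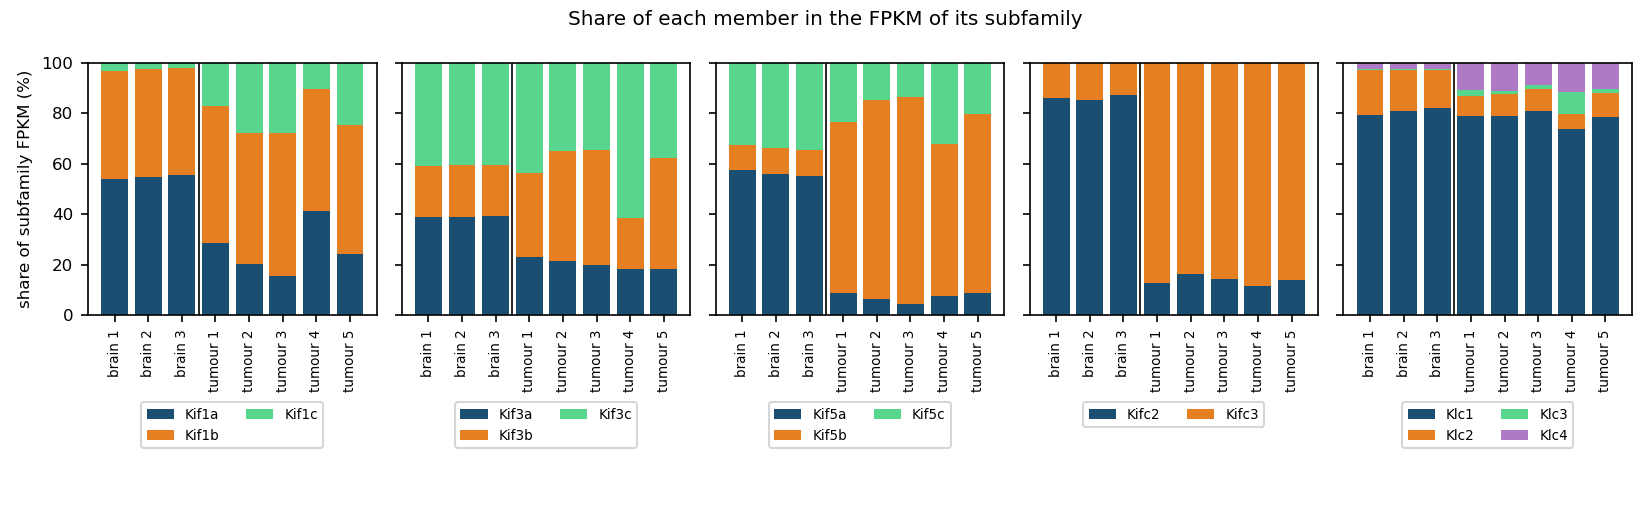
Share of each member in the summed FPKM of its subfamily (y axis, %) in each of the 3 brain and 5 tumour libraries (x axis), for the Kif1, Kif3, Kif5, Kifc2 and Kifc3, and Klc groups. Kif5a takes 55.1% to 57.5% of the Kif5 bars in the brains and 4.22% to 8.81% in the tumours, where Kif5b takes most of each bar.

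Markers of several cell types also differed between the groups. Of 10 neuron markers 8 were lower in glioblastoma, and Nefl and Stmn2 were not called. Their summed level was between 8631 and 9502 CPM in the brains and between 682.5 and 1002 CPM in the tumours, with none at 0 in any library. The log2 fold change of the 10 neuron markers ran from -6.57 to -0.53, with a median of -5.16, beside -5.61 for Kif5a. The largest falls were in Slc17a7, a glutamate transporter of excitatory neurons (-6.57), and Snap25, a protein of synaptic vesicle release (-6.14). The smallest was in Stmn2 (-0.53). All 6 oligodendrocyte markers were lower, 3 of 6 astrocyte markers were lower and 3 were not called. The oligodendrocyte marker Opalin reached the filter level in 1 tumour and the neuron marker Rbfox3 in 2. Both therefore entered the test through the brains, and their calls are descriptions. Of 6 macrophage and microglia markers 4 were higher, 1 was lower and 1 was not called, and all 4 endothelial markers were higher. These marker counts stand beside 37.1% higher and 33.9% lower among all tested genes. The part of cell composition in the kinesin values was not tested, and in bulk tissue fewer cells of a type and less RNA per cell cannot be told apart. Tumour 4 was the highest tumour for 14 of the 21 transport genes and the lowest for 6. The neuron markers did not share this order: tumour 4 was the highest tumour for 3 of 10 and the lowest for 5. Without tumour 4 the median log2 fold change of the transport class was -1.84.

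The partners of the transport kinesins were read from a list of 23 symbols for adaptors, cargo linkers and regulators, in which Kif1bp is an older name of Kifbp, so that 22 genes were in the table. Of these 22, all of which were tested, 19 were lower, 0 were higher and 3 (Fez1, Sybu and Rhot1) were not called. Of all tested genes 33.9% were lower and 37.1% were higher. The 22 partner genes had a median log2 fold change of -2.11. The largest falls were in Ppfia3, a liprin of the presynaptic active zone (-5.30 ± 0.23, SE; edgeR adjusted p = 5.07e-07), Mapk8ip2, a JIP scaffold (-4.78 ± 0.16, SE; edgeR adjusted p = 2.21e-07), and Apba1, which links Kif17 to its cargo (-4.27 ± 0.25, SE; edgeR adjusted p = 2.24e-06). Kifbp, which binds and holds back several kinesins, fell by 1.99 ± 0.26 on the log2 scale (SE; edgeR adjusted p = 0.000146).

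Cytoplasmic dynein and dynactin, which move cargo the opposite way along microtubules, were mixed. Of 18 tested genes 4 were higher, 7 were lower and 7 were not called, beside 37.1% higher and 33.9% lower among all tested genes. The count of higher genes was 6 under upper quartile and library size scaling and 2 without brain 2. The median log2 fold change was -0.07, which became 0.05 and 0.07 under those scalings. The 3 largest changes were falls in Dync1i1, the neuronal intermediate chain (-4.97 ± 0.27, SE; edgeR adjusted p = 1.37e-06), Dynll2, a light chain (-3.37 ± 0.21, SE; edgeR adjusted p = 2.75e-06), and Dctn1, the largest dynactin subunit (-2.03 ± 0.11, SE; edgeR adjusted p = 1.6e-06). The widely expressed intermediate chain Dync1i2 rose from between 164.9 and 180.9 CPM in the brains to between 305.7 and 377.1 CPM in the tumours (0.92 ± 0.13, SE; edgeR adjusted p = 0.00023).

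The ciliary kinesins split by member, at low levels. Kif6 and Kif27 reached the filter level, counted before TMM scaling, in all 3 brains but in 1 and 2 tumours. Both so entered the test through the brains, and Kif24 reached that level in 1 brain and in all 5 tumours. Calls of these genes are therefore a description, as for the mitotic class. Kif6, a motor linked to the cilia of ependymal cells, measured 7.11, 6.64 and 6.82 CPM in the brains and 0.310, 0.902, 1.13, 1.28 and 0.485 CPM in the tumours. All tumours were below the brains, with a log2 fold change of -3.00 ± 0.41 (SE; adjusted p = 0.000199 in edgeR). Kif27, a relative of Kif7 needed for motile cilia, measured 12.2, 6.49 and 5.59 CPM in the brains and 0.776, 1.62, 0.756, 1.46 and 1.13 CPM in the tumours. Brain 1 was the highest library and no tumour reached a brain (log2 fold change -2.79 ± 0.38, SE; edgeR adjusted p = 0.000196). Kif9, a motor of motile cilia, measured 7.27, 7.36 and 6.54 CPM in the brains and 2.02, 2.71, 2.77, 3.09 and 2.59 CPM in the tumours. Its log2 fold change was -1.41 ± 0.23 (SE; edgeR adjusted p = 0.000609), and at 2.34 ± 0.214 FPKM (SD, n = 3) it had the highest ciliary level per length in the brains. Of 10 tested markers of ependymal cells and motile cilia 6 were lower and 4 were not called, beside 33.9% lower among all tested genes. At most 2 tumours reached the filter level for 6 of these 10 markers. Their summed level was between 96.0 and 114.4 CPM in the brains and between 9.62 and 48.9 CPM in the tumours, and their part in the ciliary kinesin values was not tested.

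Kif24, which restrains the growth of primary cilia, went the other way, at 2.03, 1.15 and 1.23 CPM in the brains and 3.10, 4.69, 3.403, 3.32 and 3.798 CPM in the tumours. The groups did not overlap, and the log2 fold change was 1.31 ± 0.33 (SE; edgeR adjusted p = 0.00582). Kif7, a regulator of hedgehog signalling in primary cilia, measured 1.18, 1.73 and 2.59 CPM in the brains and 3.72, 1.44, 1.39, 13.0 and 1.78 CPM in the tumours. Tumour 4 stood apart and the groups overlapped. The log2 fold change of 1.25 ± 0.85 (SE; adjusted p = 0.216 in edgeR) was 0.16 without tumour 4. Kif19a, which shortens ciliary tips, was not called (-0.41 ± 0.44, SE; edgeR adjusted p = 0.429).

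Among the others, Kif2a, which takes microtubules apart in axons as well as at spindle poles, had the highest level per length in both groups, at 27.2 ± 3.59 FPKM (SD, n = 3) in the brains and 26.7 ± 7.13 FPKM (SD, n = 5) in the tumours. It measured 91.0, 105.3 and 115.5 CPM in the brains and 118.3, 120.7, 103.0, 57.0 and 102.8 CPM in the tumours. The groups overlapped, and the log2 fold change of -0.05 ± 0.24 (SE; adjusted p = 0.852 in edgeR) turned positive under upper quartile scaling (0.06) and library size scaling (0.08). Kif26a measured 2.54, 3.46 and 3.82 CPM in the brains and 8.38, 2.71, 10.6, 7.05 and 6.22 CPM in the tumours. Tumour 2 lay within the range of the brains, and the log2 fold change of 1.09 ± 0.42 (SE; adjusted p = 0.0423 in edgeR) lost its call when any 1 brain or tumour 1, 3 or 5 was left out (adjusted p up to 0.134). Kif26b was not called (0.66 ± 0.50, SE; edgeR adjusted p = 0.263) but passed the test without tumour 4 (0.93; adjusted p = 0.0083). Kif12 had 0 fragments in all 8 libraries.

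Some kinesin genes were deposited as several RefSeq transcripts, whose estimated counts divide fragments that the transcripts share, so shares of transcript forms are estimates. The form of Kif1b that codes for 1770 residues held 97.8%, 97.7% and 97.7% of the gene's fragments in the brains and 76.1%, 60.6%, 61.3%, 89.1% and 70.5% in the tumours. The form of 1150 residues held the rest, and no tumour reached the brains. Tested as a transcript of its own, the 1150-residue form was higher in glioblastoma (log2 fold change 1.25 ± 0.25, SE; edgeR adjusted p = 0.00383) and the 1770-residue form was lower (-2.70 ± 0.32, SE; edgeR adjusted p = 0.000303). In that fit of 18583 transcripts 30.4% were called higher and 25.4% lower. The fall of Kif1b summed over both forms thus joined transcripts that changed in opposite directions.

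Klc1 showed the widest shift between forms. The form of 542 residues held 92.8%, 93.0% and 92.8% of the gene's fragments in the brains and 35.6%, 29.9%, 28.7%, 23.0% and 30.8% in the tumours. The form of 616 residues was listed at 0 in every brain and held 39.1%, 45.6%, 31.6%, 40.7% and 23.5% in the tumours. The form of 608 residues held between 6.96% and 7.22% in the brains and between 24.6% and 45.7% in the tumours. The groups did not overlap for any of these forms. In the fit of transcripts the 542-residue form fell by 3.61 ± 0.13 on the log2 scale (SE; edgeR adjusted p = 2.28e-06), and the 608-residue form was not called (0.33 ± 0.25, SE; edgeR adjusted p = 0.296). An exact 2-sided permutation test of the share of the leading form in 8 genes with several transcripts gave the smallest p that 3 against 5 libraries allow, 0.0357, for Kif1a, Kif1b, Kif2a and Klc1, and an adjusted p of 0.0714 for each, so none passed after adjustment. In Kif2a the 716-residue form fell by 1.68 ± 0.23 on the log2 scale (SE; edgeR adjusted p = 0.000621), whereas the 705-residue form was not called (0.30 ± 0.27, SE; edgeR adjusted p = 0.391).

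**Figure D5:**
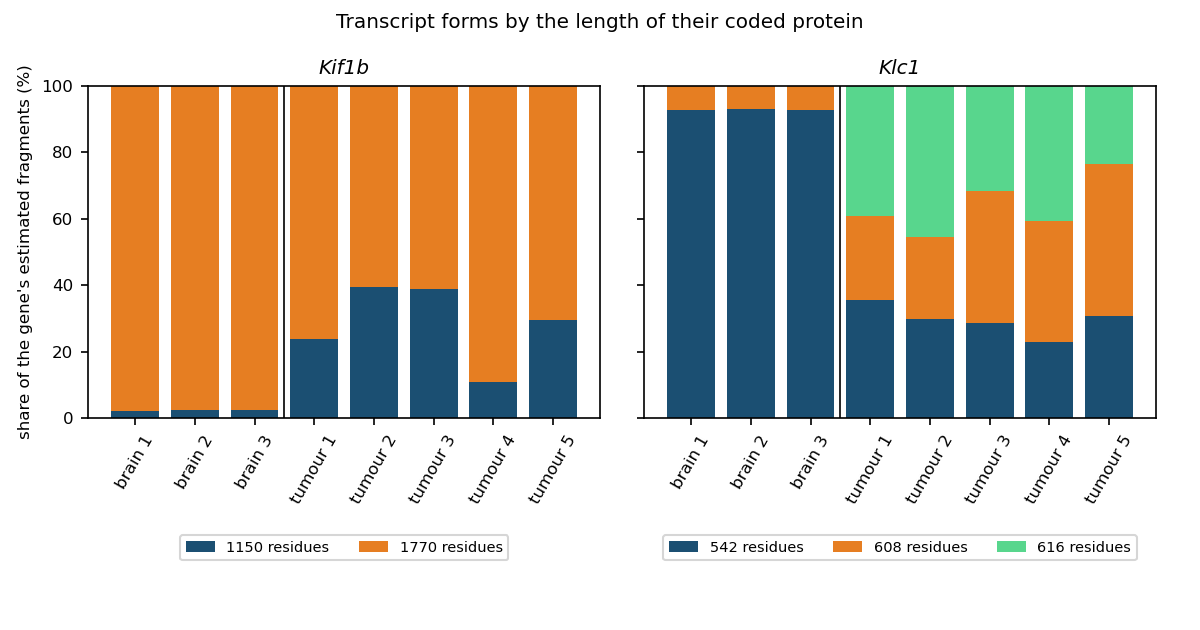
Share of each transcript form in the estimated fragments of Kif1b and Klc1 (y axis, %) in the 3 brain and 5 tumour libraries (x axis), with forms named by the length of the protein they code for. The 542-residue form of Klc1 holds at least 92.8% of the fragments in the brains and at most 35.6% in the tumours.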

How the data were processed

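RNA of 3 normal brains and of 5 glioblastomas was compared, grouped by tissue source in the labels. The submitters' processing notes name STAR 2.3.0e, Cuffdiff 2.1.1 and mm9 without settings, and the sources used here give neither annotation release nor strand setting. The authors deposited estimated counts of fragments and FPKM values for 30967 RefSeq transcripts, per the file headers. Symbols came from the RefSeq gene table for 30474 transcripts and from GENCODE for 178, and 315 without one kept their own identifier. Counts and FPKM were summed per gene, and summed counts were rounded to whole numbers: in genes with several transcripts 33.2% of single values and 97.8% of sums were whole within 0.01. Of the kinesin genes 12 had several transcripts, and the sums of Kif1b, Kif5a and Kif20a were not whole in at least 1 library. All pairs of libraries differed beyond sampling noise (lowest chi-square divided by its degrees of freedom 5.17).

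Genes with at least 1.324 CPM in 3 libraries were tested with edgeR 4.0.16 (TMM factors, robust quasi-likelihood F test, Benjamini-Hochberg adjustment over 14641 genes). Printed CPM are TMM scaled, whereas the filter used CPM scaled by library depth alone. The 95% counting intervals are exact Poisson intervals of the lower count that cover counting error only. In data simulated for glioblastoma against normal brain with 14332 genes, 76.5% of 4-fold and 13.2% of 2-fold changes were recovered. Of the 91 calls made there, 1.1% were false. How these rates carry over to the real data, with 5426 genes called higher and 4964 lower, was not tested. DESeq2 1.42.0 and limma 3.58.1, other scalings and filters and leaving out libraries were tried as alternatives; the fit of single transcripts was added after seeing the data.

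The members, classes and lists were chosen with earlier results of these data known. Genes named with every library's value were Kif11, Kif20a, Kif1a and Kif5a, the 5 called members of each class with the largest change, the member with the highest FPKM per class and group, and members called against their class; a few more were added after their values were seen. Of partner lists the 3 largest called changes are named, with others chosen after their values were seen. A planned search of kinesin proteins for the ATP-binding loop was not run.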

Additional observations from a re-analysis of the deposited data

Results flagged for a closer look

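In 6 of 42 kinesin genes examined, 1 tumour lay farther from the other 4 than Dixon's 95% critical value allows. For independent, normally distributed values chance gives about 1 in 20, but these genes share the same tumours. The share of all tested genes that pass was not counted, so the 6 are no measure of an excess among kinesins. In all 6 genes the tumour set apart was tumour 4, the deepest library. It was the lowest tumour for Kif11 (44.55 CPM), the spindle motor, and for Kif2a (56.95 CPM), the microtubule depolymerase. It was the highest for Kif3c (398.1 CPM), the kinesin-2 motor of axons, for Kifc3 (72.09 CPM), a minus-end motor, for Kif7 (13.04 CPM), the hedgehog regulator, and for Klc3 (16.31 CPM), a light chain. The same library was the lowest tumour for all 10 proliferation markers. Whether the tumour itself or its library sets it apart cannot be told apart.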

How the results depend on the processing

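No paired analysis was possible because the replicate numbers follow deposition order and pair no samples. Over 18 alternative settings, between 11 and 12 mitotic genes were higher and between 10 and 13 transport genes were lower. Of 30 called kinesin genes 25 kept their call in every setting in which they were tested, and Kif1c, Kif21b, Kif26a, Kif3b and Kifc5b lost it in at least 1. Of 12 genes not called, 5 passed in at least 1 setting. The count of transport genes called higher, 1, became 2 with DESeq2, 0 with limma on log2(FPKM + 1) and 0 on log2(FPKM + 0.1), and 2 with brain 1 and tumour 4 both left out; leaving out 1 library gave 0 to 1. The count of ciliary and other genes called higher, 2, became 1 with a filter of 5 CPM, 1 with limma on log2(FPKM + 1) and 1 on log2(FPKM + 0.1); leaving out 1 library gave 1 to 3. The mitotic share of kinesin motor levels was 17.8% in the tumours and 0.154% in the brains from CPM, and 0.234% in the brains with light chains in the denominator.

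Some genes that were not called changed sign. Kif2a became 0.0635 with upper quartile and 0.0774 with library size scaling and 0.0169 without brain 1 and tumour 4. Leaving out 1 library gave -0.14 to 0.107 for Kif2a (positive without brain 3 or tumour 4), -0.0544 to 0.492 for Kif13a and -0.0412 to 0.181 for Kifc3 (both negative without tumour 4). Without brain 1 and tumour 4, Kif19a went from -0.41 to 0.0532, Kif7 from 1.25 to -0.0592 and Kifc3 from 0.10 to -0.0585. The cause was not tested. Single transcripts opposed the sum of their gene in Kif1b (1.25), Kif2a (0.30), Kifc3 (-0.11) and Klc1 (0.33, and 12.17 for the form listed at 0 in the brains, which depends on the prior count and is no bound). Upper quartile and library size scaling moved the median of all genes by 0.12 and 0.14. Genes with a few fragments per library, such as Kif18b and Kifc1 in the brains, are limited by depth.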
